A study of Homo sapiens with 3 samples.

Results

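The 10 genes described here encode amino acid transporters of the plasma membrane and were taken by symbol from the deposited expression table, which lists 60930 genes. They are SLC6A9, SLC38A1, SLC38A2, SLC7A1, SLC7A5, SLC3A2, SLC1A5, SLC1A4, SLC7A11 and SLC43A1, and all 10 were found and reached the minimum mean of 1 TPM that 13637 genes reached. SLC6A9 and SLC38A1 were chosen because they changed in opposite directions in these libraries, so their changes are given as a description. The question for the other 8 was which of them followed either gene.

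RNA-seq covered 3 libraries of PC3, a human prostate cancer cell line that grows without androgen. One library came from cells with the control hairpin (shCON), and the others came from cells stably expressing a short hairpin RNA against USP16, shUSP16#1 or shUSP16#2, from a pLKO.1 vector after puromycin selection. USP16 is a deubiquitinase of histone H2A that the study examined as a stabilizer of the c-Myc protein. Each condition had 1 library, so no difference below has a replicate check and no p-value can be given. Values are transcripts per 1000000 (TPM), in which reads are divided by gene length and scaled to the same total in each library, so levels of different genes can be set side by side, but the depth behind them is unknown. In a bulk library, fewer expressing cells and less RNA per cell cannot be told apart.

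USP16 itself was at 19.9 TPM in shCON, 3.50 TPM with shUSP16#1 and 1.08 TPM with shUSP16#2. The epithelial markers KRT8, KRT18, KRT19 and EPCAM were above 100 TPM in every library. KLK2 and KLK3, markers of luminal prostate cells, were listed at 0 in all 3 libraries. Among 7 markers of other cell types, the leukocyte marker PTPRC reached at most 0.14 TPM, and the highest was COL1A1 at 4.19, 10.7 and 4.78 TPM in shCON, shUSP16#1 and shUSP16#2. A change is the log2(TPM + 1) of a hairpin library less that of the shCON library, on which scale genes of low level show too small a change. Over all tested genes the median change was -0.17 for shUSP16#1 and -0.37 for shUSP16#2, and changes of the transporters are also given relative to it.

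Amino acids cross the plasma membrane through carriers that are grouped into systems by what they move and what drives them. Sodium-driven carriers, such as system A (SLC38A1 and SLC38A2) and the glycine transporter SLC6A9, can build up their substrates inside the cell. Exchangers, such as system L and system xc-, take up one amino acid as another leaves, and those of the SLC7 family that pair with SLC3A2 depend on this heavy chain to reach the membrane. Tumour cells draw on these carriers for glutamine, leucine, arginine, cystine and glycine, and several of the genes are known targets of c-Myc or of ATF4, the factor that responds to amino acid shortage. Of the 10 genes, SLC6A9, SLC38A1, SLC7A1, SLC3A2, SLC1A5 and SLC7A11 are 6 that also stand in the list of 310 genes the study used as its c-Myc signature. Of the 42 other amino acid transporters described below 1 is in the signature. The expression table lists 60930 genes, but this is not a like base, since the 10 genes are all among the 13637 tested ones. The share of tested genes in the signature was not counted, and the 10 genes were chosen with earlier results of these data known. A link of the 10 genes to c-Myc was not tested.

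The levels of the 10 mRNAs in shCON spanned from 3.28 TPM for SLC7A11 to 293 TPM for SLC3A2. SLC3A2 and SLC7A5 were first and second in every library and made up 70.1% of the summed TPM of the 10 genes in shCON, 75.6% with shUSP16#1 and 81.6% with shUSP16#2. SLC1A5 came next and then SLC38A2 in every library. SLC38A1 took rank 5 in shCON and with shUSP16#1 and rank 6 with shUSP16#2, whereas SLC6A9 took rank 7 in shCON, rank 6 with shUSP16#1 and rank 5 with shUSP16#2. SLC43A1, SLC1A4 and SLC7A11 stayed in the last places in every library. With 1 library per condition, it is not known whether neighbours in this order, such as SLC38A2 and SLC38A1 in shCON at 54.0 and 53.2 TPM, differ by more than their spread.

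**Figure D1:**
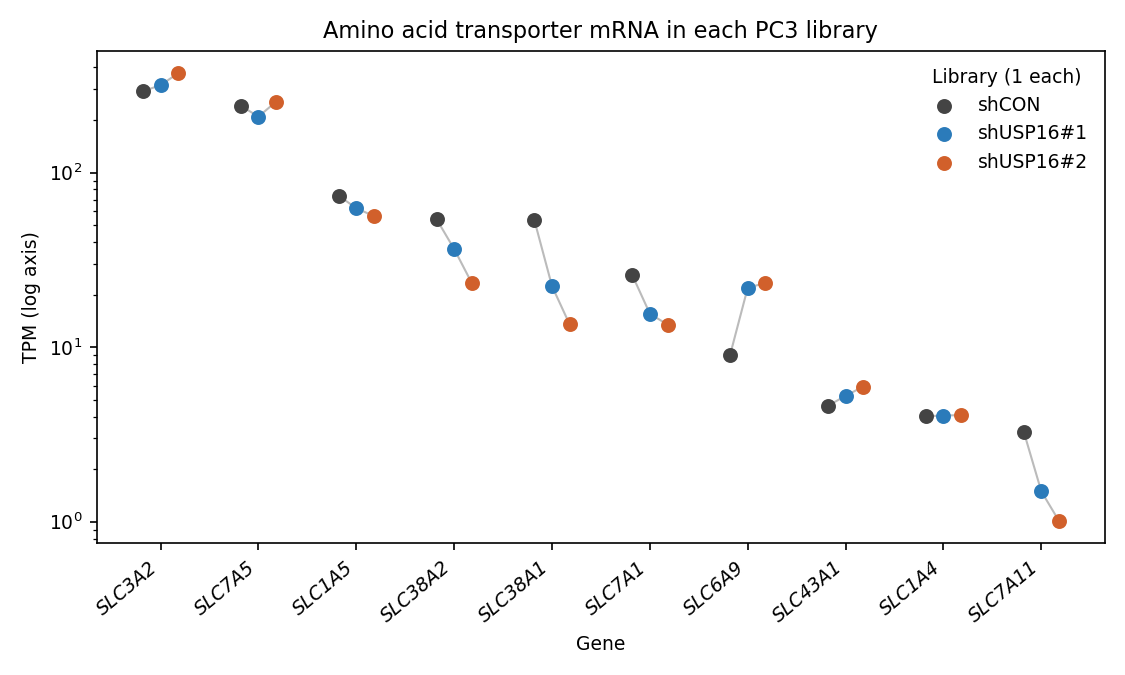
Level of each of the 10 transporter mRNAs in TPM on a log axis, with 1 point for each library (shCON, shUSP16#1 and shUSP16#2) joined by a line. SLC6A9 is higher in both hairpin libraries, SLC38A1, SLC38A2, SLC7A1, SLC7A11 and SLC1A5 are lower in both, and SLC1A4 lies between 4.02 and 4.08 TPM throughout.

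SLC6A9 encodes GlyT1, which carries glycine into the cell with sodium and chloride. It was at 9.05 TPM in shCON, 21.9 TPM with shUSP16#1 and 23.3 TPM with shUSP16#2. The hairpin libraries were close to each other and both were more than 2-fold above shCON, with log2 changes of 1.19 and 1.27, which is 1.36 and 1.64 once the median of all tested genes is subtracted. Under shUSP16#1 it lay at percentile 98.2 of all tested genes and with shUSP16#2 at percentile 98.3. A change of at least 2-fold upward under both hairpins was met by 1.14% of tested genes, and SLC6A9 was the 1 transporter of the 10 that met it. SLC6A5, the other glycine transporter of the family, was listed at 0 in all 3 libraries. SLC6A9 (ENSG00000196517) lies on the reverse strand of chromosome 1 from 43991500 to 44031467 in GENCODE release 29 on GRCh38, and overlaps the opposite-strand genes CCDC24 and AL139220.2. CCDC24 was at 8, 9.12 and 8.98 TPM, and AL139220.2 was at 3.74, 5.80 and 4.20 TPM in shCON, shUSP16#1 and shUSP16#2. Whether the reads were counted by strand is not given in the sources used here.

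SLC38A1 and SLC38A2 encode SNAT1 and SNAT2, the sodium-coupled carriers of system A, which take up glutamine, alanine and other small neutral amino acids. SLC38A1 was at 53.2 TPM in shCON, 22.3 TPM with shUSP16#1 and 13.5 TPM with shUSP16#2. Both hairpin libraries were more than 2-fold below shCON, with log2 changes of -1.22 and -1.90, which is -1.05 and -1.54 once the median of all tested genes is subtracted. A change of at least 2-fold downward under both hairpins was met by 4.6% of tested genes, and SLC38A1 was again the 1 of the 10 that met it. It lay at percentiles 2.74 and 1.31 of all tested genes with shUSP16#1 and shUSP16#2.

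SLC38A2 started from nearly the same level, 54.0 TPM in shCON, and was at 36.4 TPM with shUSP16#1 and 23.3 TPM with shUSP16#2. Its log2 changes were -0.56 and -1.18, so it was lower in both hairpin libraries but less so than SLC38A1 in each. The ratio of SLC38A1 to SLC38A2 was 0.984 in shCON, 0.613 with shUSP16#1 and 0.579 with shUSP16#2. The remaining carrier of system A, SLC38A4, was listed at 0 in all 3 libraries, so the summed TPM of the system was 107, 58.8 and 36.8, or 54.8% and 34.3% of shCON. Both genes lie on the reverse strand of chromosome 12, SLC38A1 (ENSG00000111371) from 46183063 to 46270017 and SLC38A2 (ENSG00000134294) from 46358189 to 46372867, with 88172 bases between them. Within 1000000 bases on either side of the pair, 8 other genes were tested. SCAF11, ANO6, ARID2, PLEKHA8P1 and AC008014.1 were the 5 of them lower under both hairpins, near the 57.2% of all tested genes, with log2 changes of -1.18 and -1.65 for SCAF11, the largest of these, and -0.04 and -0.11 for AC008014.1, the smallest. PCED1B in the same stretch was higher, at 0.99 and 0.79, while AMIGO2 was at 0.04 and -0.92 and AC008124.1 at 0.12 and -0.38.

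SLC1A5 and SLC1A4 encode ASCT2 and ASCT1, sodium-dependent exchangers of neutral amino acids. ASCT2 is known as a main route of glutamine into tumour cells. SLC1A5 was at 73.7 TPM in shCON, 62.4 TPM with shUSP16#1 and 56.3 TPM with shUSP16#2, log2 changes of -0.24 and -0.38. These lay close to the median of all tested genes, at -0.06 and -0.01 relative to it. SLC1A4 was at 4.02, 4.05 and 4.08 TPM in shCON, shUSP16#1 and shUSP16#2, the narrowest range of the 10 genes on this scale. SLC1A4 (ENSG00000115902) lies on the forward strand of chromosome 2 from 64988477 to 65023865. SLC1A5 (ENSG00000105281) lies on the reverse strand of chromosome 19 from 46774883 to 46788594.

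SLC7A5 encodes LAT1, the light chain that exchanges intracellular glutamine for leucine and other large neutral amino acids, and SLC3A2 encodes its heavy chain 4F2hc, also called CD98. SLC7A5 was at 241 TPM in shCON, 209 TPM with shUSP16#1 and 255 TPM with shUSP16#2. Its log2 changes were -0.20 and 0.08, so the hairpin libraries lay on either side of shCON. SLC3A2 was at 293, 317 and 371 TPM, log2 changes of 0.11 and 0.34, so both hairpin libraries were above shCON but well short of 2-fold. The ratio of SLC7A5 to SLC3A2 was 0.824 in shCON, 0.661 with shUSP16#1 and 0.686 with shUSP16#2. SLC7A5 (ENSG00000103257) lies on the reverse strand of chromosome 16 from 87830023 to 87869488, and SLC3A2 (ENSG00000168003) on the forward strand of chromosome 11 from 62856102 to 62888875. The pseudogene SLC7A5P1, which resembles part of SLC7A5 and may share reads with it, was at 2.65, 1.36 and 0.60 TPM, a small fraction of the parent gene.

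The other light chains that can pair with SLC3A2 were much less abundant. SLC7A6, which encodes y+LAT2, was at 18.2 TPM in shCON, 7.27 TPM with shUSP16#1 and 7.48 TPM with shUSP16#2. SLC7A7, SLC7A8 and SLC7A10 stayed under 1 TPM in every library. Summed over SLC7A5, SLC7A6, SLC7A7, SLC7A8, SLC7A10 and SLC7A11, the light chains came to 263 TPM in shCON, 219 TPM with shUSP16#1 and 264 TPM with shUSP16#2. Against the heavy chain, this was a ratio of 0.898, 0.691 and 0.710.

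SLC43A1 encodes LAT3, a carrier of large neutral amino acids that needs no heavy chain and was first described as a gene overexpressed in prostate cancer. It was at 4.61, 5.26 and 5.94 TPM, log2 changes of 0.16 and 0.31. SLC43A1 (ENSG00000149150) lies on the reverse strand of chromosome 11 from 57484534 to 57515786. Its pair of changes lay close to that of SLC3A2 although its level was far lower. SLC43A2, the related LAT4 gene, was at 4.39, 2.45 and 2.65 TPM, lower under both hairpins.

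SLC7A1 encodes CAT1, the main carrier of arginine and lysine (system y+) in many cells. It was at 25.8 TPM in shCON, 15.5 TPM with shUSP16#1 and 13.5 TPM with shUSP16#2. The log2 changes were -0.70 and -0.89, short of 2-fold under each hairpin, which is -0.53 and -0.52 once the median of all tested genes is subtracted. SLC7A1 (ENSG00000139514) lies on the reverse strand of chromosome 13 from 29509410 to 29595688. SLC7A2, which encodes the related carrier CAT2, was at 2.78, 0.93 and 0.54 TPM, and SLC7A3 was listed at 0 throughout. The summed TPM of system y+ was thus 57.5% of shCON with shUSP16#1 and 49.0% with shUSP16#2.

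SLC7A11 encodes xCT, the light chain of system xc-, which takes up cystine for glutathione synthesis in exchange for glutamate. It had the lowest level of the 10 genes, 3.28 TPM in shCON, 1.49 TPM with shUSP16#1 and 1.01 TPM with shUSP16#2. These are 45.4% and 30.8% of the TPM in shCON, but on the log2(TPM + 1) scale the changes were -0.78 and -1.09, so it was counted as 2-fold lower with shUSP16#2 alone. SLC7A11 (ENSG00000151012) lies on the reverse strand of chromosome 4 from 138164097 to 138242349. SLC7A11-AS1, which overlaps it on the opposite strand, did not exceed 0.04 TPM. NFE2L2, the gene of the NRF2 factor known to drive SLC7A11, was at 30.01, 16.8 and 11.0 TPM. GCLC and GCLM, the subunits of the enzyme that uses the imported cysteine to begin glutathione synthesis, were at 23.0, 12.9 and 9.83 TPM and at 7.80, 3.24 and 2.86 TPM.

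Of the 10 genes, 5 were below shCON in both hairpin libraries, 4 were above it in both and 1 was split, against 57.2%, 24.5% and 18.3% of all tested genes. At least 2-fold lower were 1 gene with shUSP16#1 and 3 with shUSP16#2, where 5.79% and 19.5% of tested genes passed. At least 2-fold higher was 1 gene under each hairpin, where 2.83% and 2.8% of tested genes passed. The higher gene was SLC6A9 and the lower gene with shUSP16#1 was SLC38A1. Both were picked for these changes, so their counts follow from that choice. With shUSP16#2, SLC38A2 and SLC7A11 were the lower genes beside SLC38A1. No member beyond the picked pair was 2-fold changed under both hairpins. The median log2 change of the 10 genes was -0.22 with shUSP16#1 and -0.18 with shUSP16#2. Relative to all tested genes this was -0.05 and 0.19. Lower with shUSP16#2 than with shUSP16#1 were 5 of the 10 genes, against 73.4% of all. SLC38A1, SLC38A2, SLC7A1, SLC7A11 and SLC1A5 were the 5 lower genes and SLC6A9, SLC3A2, SLC43A1 and SLC1A4 the 4 higher ones.

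**Figure D2:**
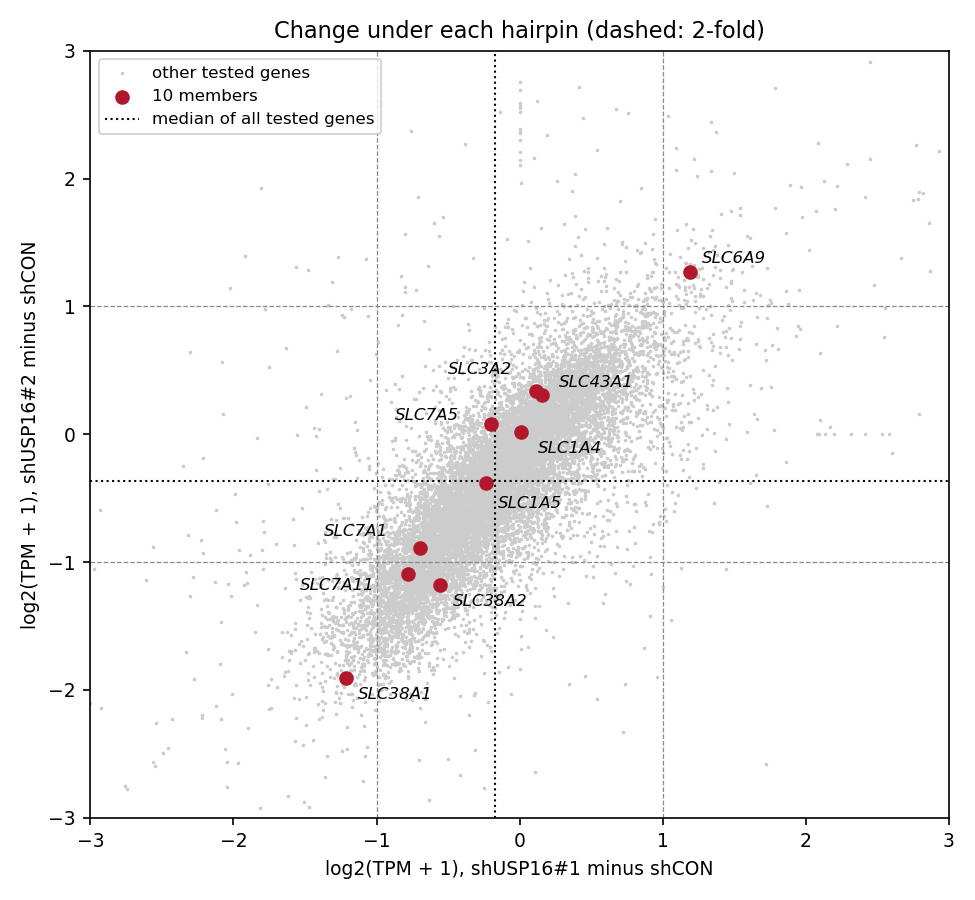
Log2(TPM + 1) change with shUSP16#1 (horizontal axis) and shUSP16#2 (vertical axis) for each tested gene (grey) and the 10 transporters (red), with dashed lines at 2-fold and dotted lines at the median of all tested genes. SLC6A9 and SLC38A1 sit at opposite ends and the other 8 transporters lie between them, and 151 genes fall outside the axes.

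Likeness was measured as the straight-line distance between the pairs of log2 changes, which rests on 3 libraries and on a shCON library common to both changes. SLC38A1 had SLC7A11 as its nearest of the 10 genes, at a distance of 0.92, followed by SLC38A2 at 0.98 and SLC7A1 at 1.14. SLC6A9 had SLC43A1 at 1.41 and SLC3A2 at 1.42. For comparison, the median of all tested genes lay at a distance of 0.90 from SLC38A2, 0.74 from SLC7A1 and 0.95 from SLC7A11, and at 0.75 from SLC43A1 and 0.76 from SLC3A2. Only SLC7A11 of the other 8 genes was therefore nearer to SLC38A1 than to the median gene, by a narrow margin. None was nearer to SLC6A9. The margin rests on log2(TPM + 1), a scale that makes the change of a gene as low as SLC7A11 too small. With a pseudocount of 0.1, SLC7A11 was at -1.09 and -1.61 and SLC38A1 at -1.25 and -1.97, and no distances are given on that scale. The nearness of SLC7A11 to SLC38A1 did not hold once the trend with GC content described below was removed. SLC7A11 then lay 0.16 from the median gene and 1.07 from SLC38A1. SLC7A1 then lay 0.27 from SLC38A1 and 0.98 from the median gene, and SLC1A5 lay 0.54 from SLC38A1 and 0.63 from the median gene. None of the 8 was nearer to SLC6A9 in that setting either, which was added after seeing the data.

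Among the 25 other tested transporters, those listed below included, SLC38A1 was most like SLC38A9, SLC7A2 and SLC7A6, at distances of 0.36, 0.66 and 0.73. SLC6A9 was most like SLC1A6, SLC6A14 and SLC43A1, at 0.98, 1.07 and 1.41, so no other transporter matched it closely. Among the 9300 genes with a mean of 5 TPM or more, each query left out, the nearest to SLC38A1 were DEK, CDKL1, KRR1, DNAJC2 and DDX21, all within 0.04. The nearest to SLC6A9 were USP8P1, PLEKHH3, AP003419.1, TUBB2B and ADIRF, all within 0.07.

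A list of 42 other amino acid transporters was described in the same way, and 16 of them reached the minimum of 1 TPM. Of these 16, 12 were lower under both hairpins, 3 were higher under both and 1 was split, where the shares of all tested genes were 57.2%, 24.5% and 18.3%. Their medians were -0.42 and -0.54. SLC43A3, at 112, 81.6 and 95.0 TPM, is counted here among the lower genes, and whether it carries amino acids was not checked. At least 2-fold lower under both were 2 genes, SLC38A9 and SLC7A6, against 4.6% of all tested genes. SLC38A9, the lysosomal carrier that signals arginine to mTORC1, was at 19.7 TPM in shCON, 7.76 TPM with shUSP16#1 and 6.07 TPM with shUSP16#2. SLC1A3, the glutamate carrier EAAT1, was at 13.0, 8.34 and 4.35 TPM, and was named after its value was seen.

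At least 2-fold higher under both was 1 gene, against 1.14% of all tested genes. This was SLC1A6, which encodes the glutamate carrier EAAT4. It was at 3.45 TPM in shCON, 15.5 TPM with shUSP16#1 and 16.2 TPM with shUSP16#2, log2 changes of 1.89 and 1.95, larger than those of SLC6A9. SLC6A14, a carrier of both neutral and cationic amino acids, was at 1.97, 3.34 and 2.96 TPM. SLC38A10 was at 26.7, 31.1 and 31.3 TPM.

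**Figure D3:**
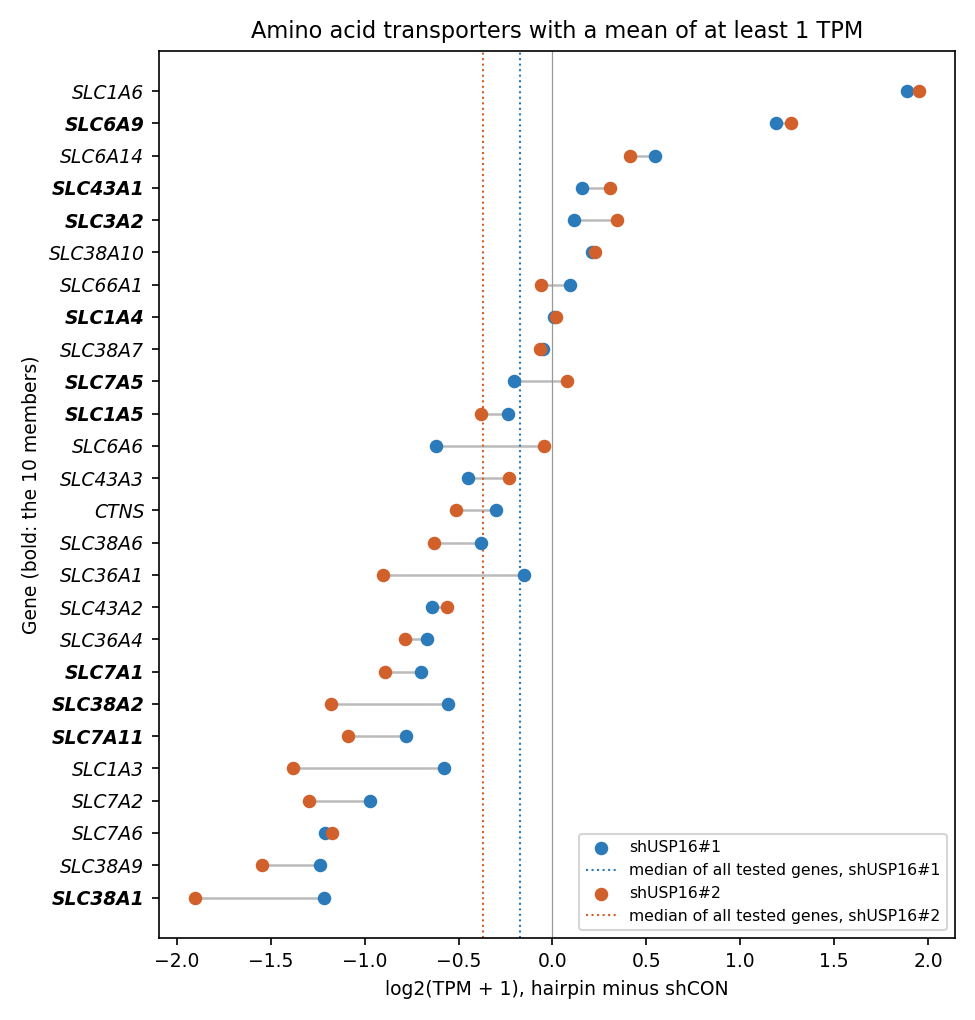
Log2(TPM + 1) change of the 26 tested amino acid transporters with shUSP16#1 (blue) and shUSP16#2 (orange), ordered by their mean, with the 10 genes described here in bold and dotted lines at the medians of all tested genes, -0.17 and -0.37. SLC38A1 and SLC38A9 are at the low end, and SLC1A6 and SLC6A9 stand apart at the high end.

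Summed by transport system, the glycine transporters SLC6A9 and SLC6A5 were at 242% and 257% of shCON with shUSP16#1 and shUSP16#2. All of this came from SLC6A9, which was picked for its change, and carriers of other systems are not in the sum. System L was at 87.0% and 105%, the heavy chain SLC3A2 at 108% and 127%, and system ASC at 85.5% and 77.7%. System y+L was at 41.4% and 41.5%. The 5 carriers of glutamate in system XAG came to 145% and 124%, in which SLC1A6 was higher and SLC1A3 lower. The 10 genes together summed to 761 TPM in shCON, 695 TPM with shUSP16#1 and 767 TPM with shUSP16#2, and without SLC3A2 and SLC7A5 they summed to 228, 169 and 141 TPM.

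**Figure D4:**
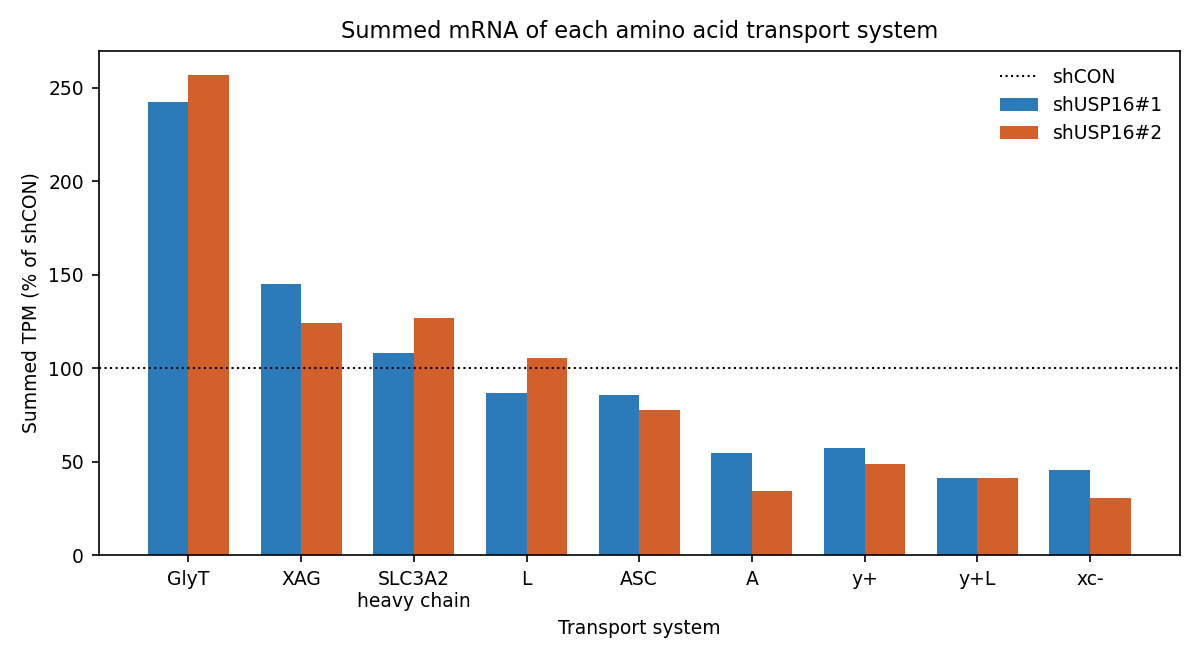
Summed TPM of the carriers of each transport system with shUSP16#1 (blue bars) and shUSP16#2 (orange bars) as a percentage of shCON (dotted line at 100%), with 1 library per bar and no error. The GlyT bars, at 242% and 257%, come from SLC6A9 alone, which was picked for its change. Systems A, y+, y+L and xc- are below 60% under both hairpins, and system A includes SLC38A1, picked in the same way.

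The genes that use, sense or carry amino acids inside the cell are set beside the shares of all tested genes, 57.2% lower and 24.5% higher under both hairpins, and their counts lay near these. In a list of 22 genes of glutamine, serine and glycine use, 21 were tested, of which 12 were lower and 6 higher under both hairpins, with medians of -0.24 and -0.39. ODC1, the first enzyme of polyamine synthesis, was at 351, 172 and 139 TPM. PHGDH, the first enzyme of serine synthesis, was at 79.95, 153 and 147 TPM, and ASNS, which makes asparagine from glutamine, was at 28.2, 44.4 and 51.9 TPM.

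In a list of 27 amino acid sensing genes, 23 were tested, of which 12 were lower and 7 higher under both, with medians of -0.17 and -0.17. ATF4, the transcription factor of the amino acid response, was at 340, 369 and 351 TPM, and was named after its value was seen. CASTOR1, the cytosolic arginine sensor, was at 1.21, 5.06 and 5.16 TPM, and MTOR was at 17.6, 8.81 and 8.27 TPM. Of 11 mitochondrial amino acid carriers, 9 were tested, of which 6 were lower and 2 higher under both. SFXN1, the mitochondrial serine carrier, was at 33.8, 18.8 and 14.1 TPM.

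The changes of all tested genes moved with the GC content of the longest transcript, and Spearman rank correlations over 13296 genes were 0.53 for shUSP16#1 and 0.63 for shUSP16#2. Over the 10 transporters the same correlation was 0.59 and 0.66, and with the gene length in the table it was -0.66 under both. Genes are not independent replicates, and all the points come from the same 3 libraries. The transcripts with the least GC were SLC7A11 at 35.4%, SLC38A2 at 38.1% and SLC38A1 at 41.3%, and these were lower under both hairpins. SLC6A9 had 59.6%, SLC3A2 57.4% and SLC43A1 58.2%, and these were higher under both. The highest GC contents, 61.3% in SLC1A5 and 61.1% in SLC7A5, went with neither, since SLC1A5 was lower under both and SLC7A5 was split. The remaining members lay in the reverse order, as SLC1A4 at 46.5% was barely higher under both, at 0.01 and 0.02, and SLC7A1 at 52.7% was lower under both.

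Set against tested genes of like GC content, the 10 genes took another order. SLC38A1 was at -1.22 and -1.90 where the median of the 266 genes in its GC bin was -0.54 and -0.95. SLC38A2 and SLC7A11 were near their bins, whose medians were -0.62 and -1.05 for SLC38A2 and -0.62 and -1.07 for SLC7A11. SLC7A1, at 52.7% GC, was at -0.70 and -0.89 where its bin was at -0.0017 and -0.20, which placed it at percentiles 4.92 and 7.76 once the GC trend was removed. SLC38A1 was then at percentiles 5.48 and 3.17. Its GC content is that of a longest transcript of 8066 bases, whereas the gene length listed with its TPM was 2599 bases. SLC6A9 was still above its bin, whose medians were 0.11 and 0.11, and lay at percentiles 97.3 and 97.1.

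With the GC trend removed, the log2 changes were 0.91 and 0.80 for SLC6A9 and -0.84 and -1.32 for SLC38A1, so neither was 2-fold under both hairpins and 0 of the 10 genes were, against 1.99% of genes lower and 0.775% higher by the same rule. SLC7A1 was at -0.87 and -1.06, SLC38A2 at -0.11 and -0.50 and SLC7A11 at -0.33 and -0.39. SLC1A5, which had been near the median, was at -0.57 and -0.86. SLC1A4 was at 0.09 and 0.15, SLC3A2 at -0.13 and -0.02 and SLC43A1 at -0.10 and -0.07. All these values still hold the overall median change of each hairpin. Relative to that median, SLC6A9 was at 1.08 and 1.16, past 2-fold under both hairpins, and SLC38A1 was at -0.67 and -0.96. SLC3A2 was at 0.05 and 0.35 and SLC43A1 at 0.07 and 0.30 in the same way. What part of the changes belongs to GC content was not tested beyond these values.

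**Figure D5:**
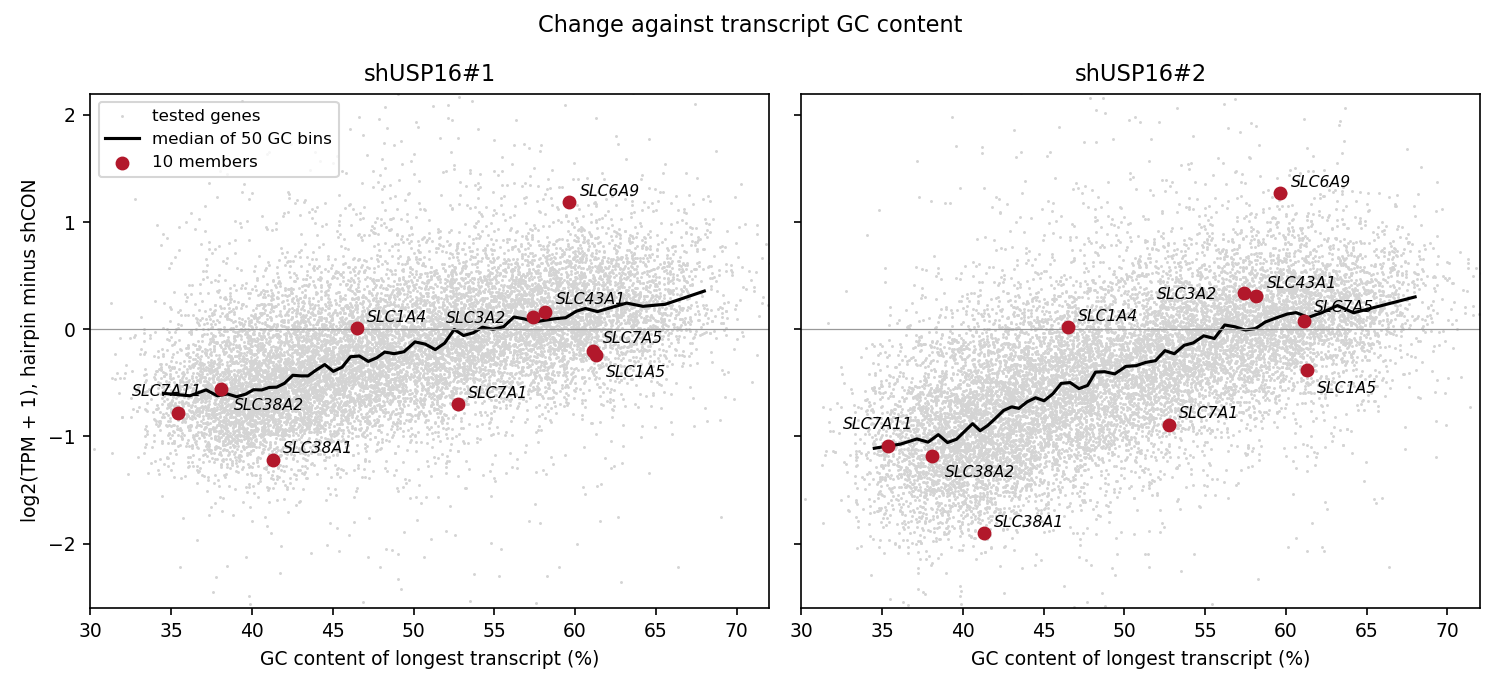
Log2(TPM + 1) change with shUSP16#1 (left) and shUSP16#2 (right) against the GC content of the longest transcript in percent, for tested genes (grey), the median of 50 GC bins (black line) and the 10 transporters (red). SLC38A2 and SLC7A11 lie near the line in both panels, SLC38A1 and SLC7A1 lie below it and SLC6A9 above it.

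The promoters of the 10 genes were searched for CACGTG, the E-box bound by c-Myc and MAX, which reads the same on both strands, and on both strands for TGATGNAA, the core of the element bound by ATF4 with C/EBP proteins. The motifs can overlap only in a shared TG or CA, and SLC1A5 held both, in different windows. RefSeq promoters on GRCh38.p14, from 250 bases before to 50 bases after a start site, were given for 9 of the 10 genes in 16 windows, since 5 genes have several starts. CACGTG was in 3 of the 16 windows and in 7.26% of all 35116 windows, and TGATGNAA was in 5 of the 16 and in 3.62% of all. Among the 13889 windows of tested genes the shares were 9.44% for CACGTG and 1.90% for TGATGNAA. The stretches of 30 bases around the CACGTG matches are printed 5′ to 3′ on the strand of the gene, with the motif in capitals, to show which transporters carry this element.
SLC7A5: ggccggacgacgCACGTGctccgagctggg
SLC1A5: ggcgggagtggtCACGTGgacaggacgggg
SLC43A1: cagcgggcgagtCACGTGcgcgtgaaactc

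They lie at chr16:87869620-87869649, chr19:46787326-46787355 and chr11:57515797-57515826, on the reverse strand in each case. None of these 3 genes was 2-fold changed under either hairpin, with SLC7A5 at -0.20 and 0.08, SLC1A5 at -0.24 and -0.38 and SLC43A1 at 0.16 and 0.31. The windows of SLC6A9, SLC38A1, SLC38A2, SLC7A1, SLC3A2 and SLC1A4 held no CACGTG, and SLC7A11 had no window.

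The matches to TGATGNAA are printed in the same way, to show which transporters carry this element, in whatever direction they lay. In SLC3A2 and SLC1A4 the capitals are its reverse complement.
SLC38A1: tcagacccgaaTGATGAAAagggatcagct
SLC7A1: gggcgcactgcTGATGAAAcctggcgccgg
SLC3A2: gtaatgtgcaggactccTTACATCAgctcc
SLC1A5: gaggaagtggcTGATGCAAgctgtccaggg
SLC1A4: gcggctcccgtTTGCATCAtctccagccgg

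They lie at chr12:46266502-46266531 and chr13:29595663-29595692 on the reverse strand, chr11:62881719-62881748 on the forward strand, chr19:46784893-46784922 on the reverse strand and chr2:64989381-64989410 on the forward strand. Genes with this match were thus lower (SLC38A1, SLC7A1), near the median (SLC1A5), level (SLC1A4) and higher (SLC3A2). A match is a description of the letters in these windows and not evidence of binding.

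The antisense strands of the hairpins are printed 5′ to 3′ from the study's list of sequences, with the seed (bases 2 to 8) in capitals, since short matches to a seed are known to lower other transcripts in RNA interference.
shUSP16#1 antisense: aTAAACATgatttcttctggc
shUSP16#2 antisense: aAATCTTGtggaatatcaccg

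The longest GENCODE transcript held the 7-base match to the seed of shUSP16#1 in 4 of the 10 genes, SLC38A1, SLC7A5, SLC1A4 and SLC7A11, and in 26.8% of all tested genes. The match to the seed of shUSP16#2 was held by 3 of the 10, SLC38A1, SLC38A2 and SLC7A11, and by 22.9% of all. SLC38A1 and SLC7A11 held both, in longest transcripts of 8066 and 9645 bases. The gene lengths listed with their TPM were 2599 and 9645 bases, so the matches in SLC38A1 may lie outside what was counted. SLC7A1, which was lower under both hairpins, and SLC6A9 held neither. Any part of these matches in the changes was not tested.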

How the data were processed

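Total RNA of PC3 cells was extracted with Trizol, and libraries were made with an Illumina TruSeq RNA kit and sequenced by Majorbio. The authors deposited 1 table of TPM per gene for 3 libraries, with 2 decimals, made on the Majorbio Cloud Platform. The submitters' processing notes name CASAVA, HISAT2 and the build hg19. The counting tool, the annotation, the use of strand and the depth are not given in the sources used here. The 3 columns that repeat the TPM under the same names were not used. Coordinates and GC content were taken by gene ID from GENCODE release 29 (GRCh38), and promoters from RefSeq (GRCh38.p14).

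For repeated names (1211 entries) the entry with the highest mean was kept, and 13637 genes averaging 1 TPM or more were tested. With 1 library per condition no test across samples was made, and called means a 2-fold change. To remove the GC trend, tested genes were split into 50 GC bins, each bin median was subtracted and the overall median was added back. A share of 97.5% of tested genes had a GC value. The procedure was tested on simulated data, in which GC content was drawn independently of the planted changes. That test therefore cannot show what the removal does to real changes that go with GC content. The members and lists were chosen with earlier results of these data known. Named were the 10 members, genes of the same transport systems, the 3 nearest transporters and 5 nearest genes (mean of at least 5 TPM) to SLC6A9 and SLC38A1, and genes from the 3 lowest and 3 highest of each list. Genes named outside this rule are marked or were overlapping, neighbouring or related genes. Alternatives were a pseudocount of 0.1, centring, no minimum, a minimum of 5 TPM, protein-coding genes only, removal of the GC trend and each hairpin alone; the GC trend removed with centring was added after seeing the data. Tools were pandas 2.3.3 and numpy 2.4.6 for tables, scipy 1.17.1 for correlations and matplotlib 3.10.9 for plots, in Python 3.11.15.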

Additional observations from a re-analysis of the deposited data

Results flagged for a closer look

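For SLC7A5 the hairpin libraries lay in opposite directions from shCON, with log2 changes of -0.20 under shUSP16#1 and 0.08 under shUSP16#2. The difference was not tested.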

How the results depend on the processing

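No paired analysis was possible because shCON, shUSP16#1 and shUSP16#2 are single libraries. Values are log2 changes, for which the spread taken was the SD between the hairpins, and counts are of genes 2-fold changed under both. SLC6A9 stayed above 0 and SLC38A1, SLC7A1, SLC1A5 and SLC7A11 below 0 under every alternative run for both hairpins. SLC7A11 had 7 settings where these others had 8, and SLC1A5 and SLC7A11 came as near to 0 as -0.014 and -0.019 under shUSP16#2. SLC6A9 and SLC38A1 were picked for their changes. With the GC trend removed, SLC3A2 and SLC43A1 went from above to below 0 under both hairpins and SLC7A5 under shUSP16#2. With centring added, SLC3A2 was at 0.046 and 0.35 and SLC43A1 at 0.074 and 0.30, above 0 again. SLC7A5 under shUSP16#2 was then at -0.031. Under shUSP16#1, SLC38A2 became 0.065 with the GC trend removed and centring, and SLC1A4 became -0.017 in protein-coding genes only. The median of the 10 members, -0.19 as the mean of the hairpins, became 0.084 when centred, -0.33 with the GC trend removed, -0.060 with both and -0.22 without shUSP16#2. Under shUSP16#1 it became -0.048 when centred, -0.057 with both changes, and -0.25 in protein-coding genes only. Under shUSP16#2 it became 0.19 when centred, -0.39 with the GC trend removed, -0.025 with both, -0.15 at a minimum of 5 TPM and -0.11 in protein-coding genes only. The count of members lower, 1, became 2 with a pseudocount of 0.1, 3 without shUSP16#1, and 0 with the GC trend removed, centred or not. The count of members higher, 1, became 0 with the GC trend removed but was 1 with centring added.

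For the other amino acid transporters the median of -0.46 became -0.19 when centred, -0.20 with both, and 0 with no minimum. Their 2 lower genes became 1 when centred, 0 with the GC trend removed, centred or not, and 4 without shUSP16#1, and their 1 higher gene became 2 with that trend removed and centring. The median of glutamine, serine and glycine use, -0.32, became -0.053 when centred and -0.072 with both. Its 2 lower genes became 0 under both of those, 1 with the GC trend removed, 1 at a minimum of 5 TPM and 4 without shUSP16#1, and its 0 higher genes became 1 when centred. The median of the sensing genes, -0.15, became 0.12 when centred, with or without the GC trend, -0.15 at a minimum of 5 TPM, -0.032 with no minimum, -0.076 in protein-coding genes only and -0.17 in a single hairpin. Their 0 lower genes became 3 without shUSP16#1, and their 1 higher gene 0 at a minimum of 5 TPM. Depth cannot be read from TPM, so the counting error of the low genes SLC7A11, SLC1A4 and SLC43A1 is unknown.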
